A study of Mus musculus with 6 samples.

Results

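Immediate-early and heat-shock genes form a transcriptional stress program, and the levels of 32 of them were compared between Lyve-1+ and Lyve-1- macrophages of the mouse mammary gland. The genes were chosen by symbol from a fixed list, and all 32 were found among the 24061 gene symbols of the deposited count table. All 32 also passed the filter on low counts, which left 13348 genes for testing. Of the 32 genes, 26 were immediate-early genes and 6 were heat-shock chaperones. The cells were sorted from FVB/N mice as CD45+CD11b+F4/80+Lyve-1+ or CD45+CD11b+F4/80+Lyve-1- cells. Each of the 6 libraries was a pool of both inguinal (#4) mammary glands from 4 mice, and there were 3 libraries per subset. Replicate 1 of each subset came from 6-week-old mice, and replicates 2 and 3 came from 10-week-old mice.

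Immediate-early genes are induced within minutes of a stimulus without new protein synthesis, largely through preformed factors such as serum response factor, CREB and NF-kB. Their products include transcription factors and the inhibitors that switch the same pathways off again. Heat-shock chaperones are induced by heat shock factor 1 when unfolded proteins accumulate. Both groups are known to rise while tissue is dissociated with warm enzymes. All 6 pools were minced, digested with collagenase and DNase I with shaking in the warm, and sorted by flow cytometry. No undigested sample was analysed here, so levels present in the gland and levels acquired during digestion and sorting cannot be told apart.

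Library totals ran from 6478007 to 21406839 counts, with Lyve-1- replicate 3 the shallowest. A gene with 0 counts could still have been present at up to 3 counts, which is 0.144 to 0.437 CPM (normalised counts relative to library size), depending on the library, and covers counting error only. *Lyve1* itself was at 1.43, 6.66 and 7.43 CPM in Lyve-1- replicates 1 to 3 and 2352, 788 and 597 CPM in Lyve-1+ replicates 1 to 3, which matched the sort labels. The 9 macrophage markers summed to between 4855 and 7479.7 CPM per library, and none of them was at 0. The 9 fibroblast markers summed to 1060.4 to 1259 CPM in Lyve-1- libraries and to 2489.6, 1863 and 7431 CPM in Lyve-1+ replicates 1 to 3. The 6 dendritic cell markers summed to 402 to 869 CPM in Lyve-1- and 123 to 364 CPM in Lyve-1+ libraries, and of these *Clec9a* was at 0 in Lyve-1- replicate 2 and Lyve-1+ replicate 3. Neutrophil markers reached 448 CPM in Lyve-1+ replicate 3, against 72.3 to 110.1 CPM in the other 5 libraries. Counts on olfactory receptor genes, which macrophages are not known to use, were spread over 651 of 1112 such genes in Lyve-1- replicate 3. Lyve-1+ replicate 1 had counts on 370 of them and the remaining libraries on 4 to 134. At that density, background would make up at most 0.596% of the counts of *Dusp5* and 0.455% of those of *Nr4a3* in any library.

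The 32 genes were abundant in both subsets. Together they took between 2.57% and 3.49% of the counts in a library. Levels of different genes were compared per length as RPKM, using TMM-scaled counts and GENCODE exonic lengths. By mean RPKM over the 6 libraries, 6 of the 32 genes were among the 50 highest of 13260 genes with a length, 12 were among the highest 100 and 24 among the highest 500. *Hspa8*, the constitutive cytosolic HSP70, was the highest at 1083 ± 164 and 1258 ± 102 RPKM in Lyve-1- and Lyve-1+ libraries (SD, n = 3 each). *Zfp36*, which encodes the mRNA-decay factor tristetraprolin, followed at 652 ± 251 and 633 ± 143 RPKM. *Hsp90aa1*, the inducible cytosolic HSP90, was at 567 ± 171 and 622 ± 131 RPKM, a level within the spread of *Zfp36*. *Fos* was at 437 ± 84.0 and 697 ± 253 RPKM and *Atf3* at 505 ± 227 and 627 ± 264 RPKM, which did not differ beyond their spread in either subset. At the other end, *Dusp2* was at 22 ± 5.48 and 10.8 ± 7.12 RPKM, *Hspb1* at 14.3 ± 2.47 and 12.3 ± 12.7 RPKM and *Egr3* at 13.6 ± 6.31 and 7.37 ± 3.68 RPKM. *Fosl1* was the lowest at 0.81 ± 1.11 and 3.22 ± 2.91 RPKM.

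**Figure D1:**
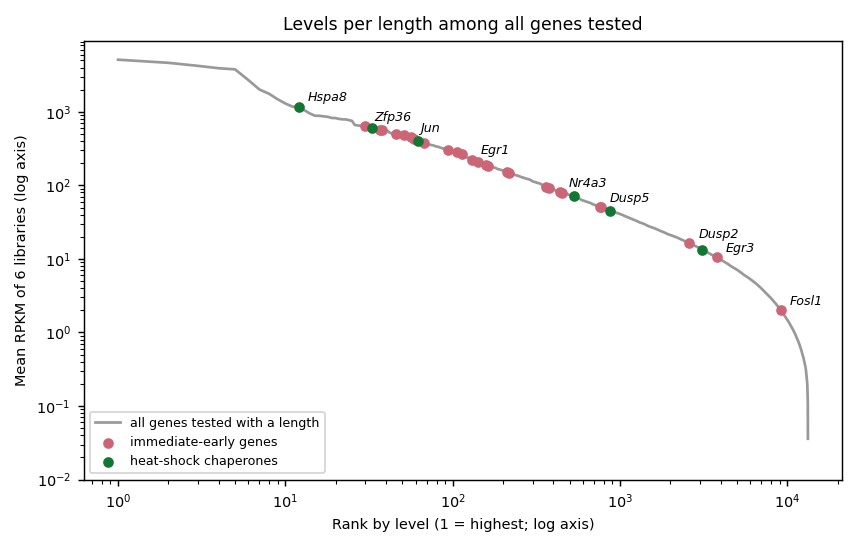
Mean RPKM of the 6 libraries (vertical log axis) against rank by that level among 13260 genes (horizontal log axis), with immediate-early genes in red, heat-shock chaperones in green and all genes as a grey line. Of the 32 genes, 24 lie among the 500 highest, and *Fosl1*, *Egr3*, *Hspb1* and *Dusp2* lie well below the rest.

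To determine whether the stress program differed between the subsets, Lyve-1+ was compared with Lyve-1- libraries by edgeR's quasi-likelihood test, adjusted over all 13348 genes. Two-sided tests at an adjusted p under 0.05 called 2 of the 32 genes, *Nr4a3* and *Dusp5*, and both were lower in Lyve-1+ macrophages. In this comparison 0.629% of all genes were called, 0.45% as higher and 0.18% as lower. At an unadjusted p under 0.05 there were 7 of the 32 genes (*Fos*, *Fosl2*, *Jun*, *Egr1*, *Nr4a3*, *Dusp5* and *Nfkbia*) against 7.69% of all genes. The 3 Lyve-1+ libraries all lay above the 3 Lyve-1- libraries for *Fos*, *Jun* and *Socs3*, against 7.82% of all genes. They all lay below for *Fosl2*, *Nr4a3*, *Dusp5* and *Nfkbia*, against 6.5% of all genes, and the subsets overlapped for the other 25. The fitted difference was above 0 for 18 genes and below 0 for 14, with a median log2 fold change of 0.12 beside -0.01 over all genes tested. Without Lyve-1- replicate 3 and Lyve-1+ replicate 1 together, the median was -0.19. Without Lyve-1+ replicate 1 alone it was -0.03. For 16 of the 32 genes the 95% interval of the difference lay within 1 log2 unit either way. For the other 16 it reached past that size. The pools were not stated to be separate experiments beyond their mice, so p-values measure the spread between these pools. Whether same-numbered libraries of the subsets shared mice, a digest or a sort is not given in the sources used here. The test took all libraries as unpaired. Over the 32 genes, same-numbered libraries correlated at 0.243, 0.415 and 0.835 for replicates 1 to 3, so a shared digest may be ignored. In sorted pools, fewer expressing cells and less RNA per cell cannot be told apart.

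**Figure D2:**
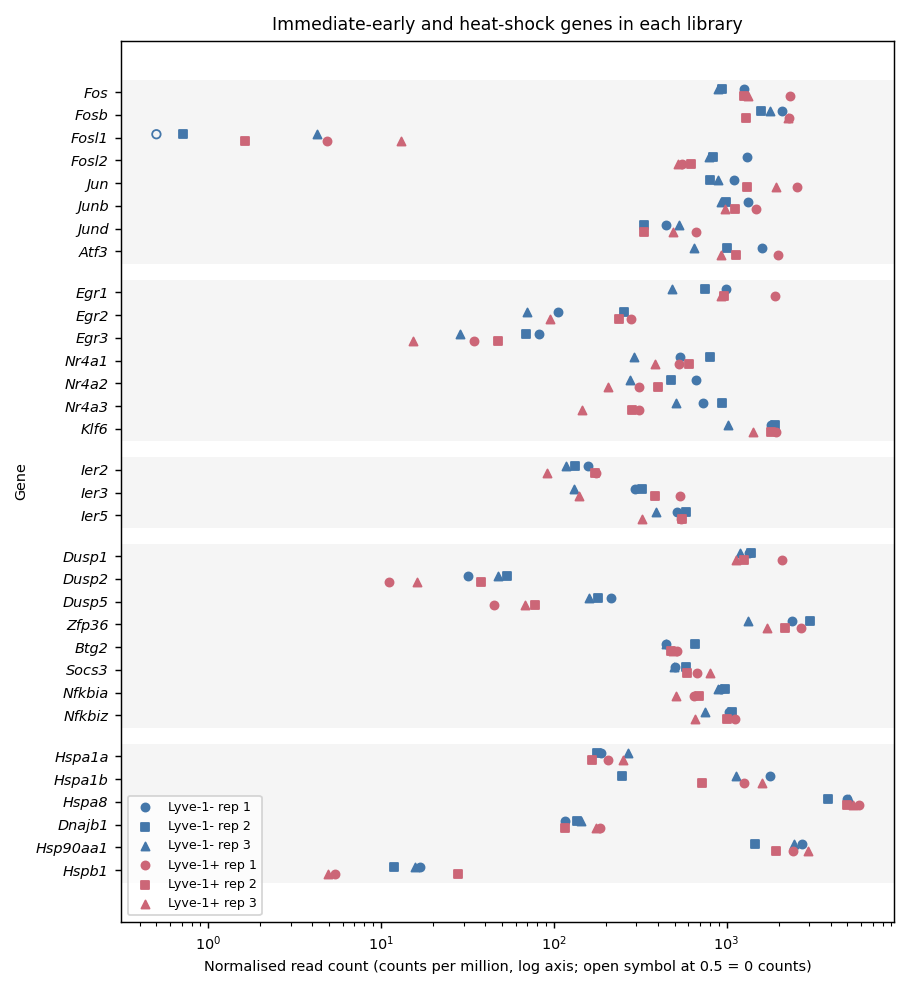
Normalised read count (CPM, horizontal log axis) of each gene in each library, with Lyve-1- in blue and Lyve-1+ in red, circles for replicate 1 (6 weeks) and squares and triangles for replicates 2 and 3 (10 weeks). The red and blue symbols separate for *Nr4a3* and *Dusp5*, with red lower, and for *Jun*, with red higher, while most other rows overlap.

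**Figure D3:**
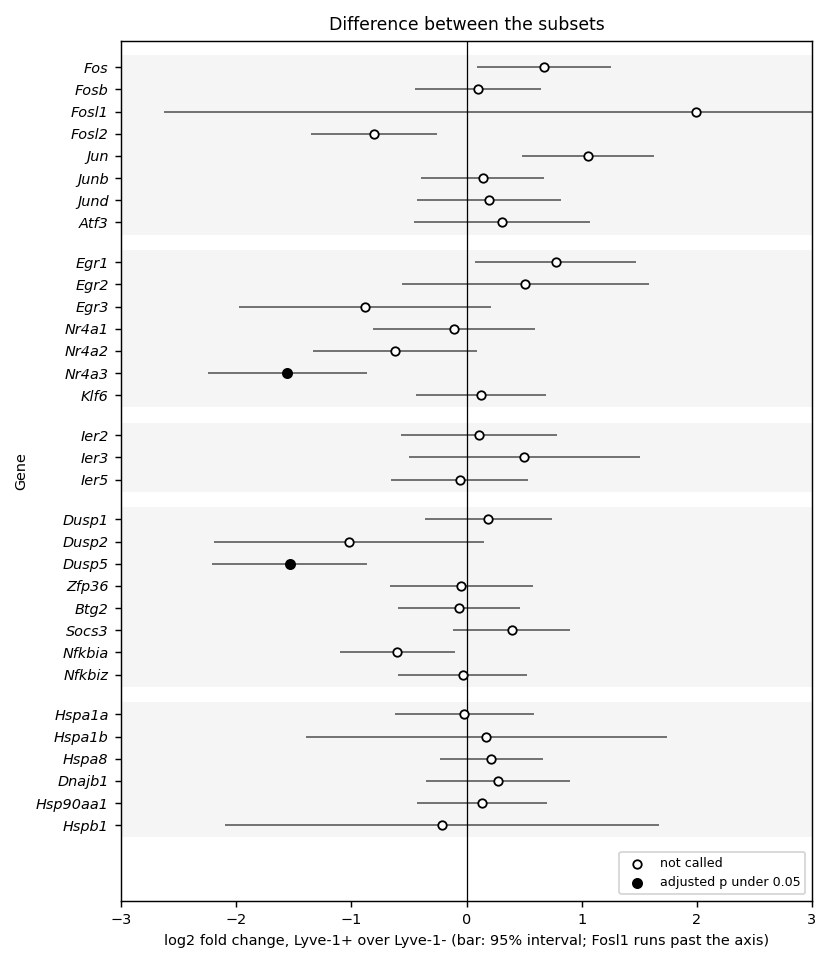
Log2 fold change of Lyve-1+ over Lyve-1- for each gene, with bars for the 95% interval of the edgeR fit and filled points for an adjusted p under 0.05. Only the filled points of *Nr4a3* and *Dusp5*, at -1.56 and -1.54, are called, and the interval of *Fosl1* runs past the right edge.

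*Dusp5* and *Nr4a3* were the 2 genes called. *Dusp5* (chr19:53529109-53542431, plus strand, GRCm38 as annotated in GENCODE M21) encodes a nuclear phosphatase that inactivates ERK. Its normalised counts were 214, 179 and 159.9 CPM in Lyve-1- replicates 1 to 3 and 45.0, 77.6 and 68.3 CPM in Lyve-1+ replicates 1 to 3. Every Lyve-1+ library was below every Lyve-1- library, with a wide gap between the subsets. The difference was larger than the spread between libraries (log2 fold change -1.54, SE 0.32, 95% interval -2.21 to -0.86, adjusted p = 0.0415). *Nr4a3* (chr4:48045153-48086447, plus strand) encodes NOR-1, an orphan nuclear receptor. Its normalised counts were 729, 938 and 508 CPM in Lyve-1- replicates 1 to 3 and 312, 282 and 145 CPM in Lyve-1+ replicates 1 to 3. The subsets did not overlap, and within each subset replicate 3 was the lowest library. *Nr4a3* also fell beyond the spread (log2 fold change -1.56, SE 0.32, 95% interval -2.25 to -0.87, adjusted p = 0.0438). Neither call was independent of single libraries. Omitting single libraries gave log2 fold changes from -1.76 to -1.32 for *Nr4a3* and from -1.72 to -1.32 for *Dusp5*. Without Lyve-1- replicate 3 both calls were lost, with adjusted p = 0.0736 for *Nr4a3* and 0.115 for *Dusp5*. *Nr4a3* was also lost without Lyve-1- replicate 2 (0.0551) or Lyve-1+ replicate 3 (0.0541), and *Dusp5* without Lyve-1- replicate 1 (0.0635) or Lyve-1+ replicate 1 (0.199). In the 10-week libraries alone the log2 fold changes were -1.77 for *Nr4a3* (adjusted p = 0.159) and -1.23 for *Dusp5* (adjusted p = 0.477). The summed level of the 6 dendritic cell markers was higher in every Lyve-1- library than in any Lyve-1+ library. For 2 of the 6 (*Xcr1* and *Ccr7*) the Lyve-1+ libraries all lay below, against 6.5% of all genes. None of the 6 was called by edgeR, against 0.629% of all genes, or by DESeq2, against 1.94%. The part of these markers in the results was not tested.

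The stretches just upstream of *Dusp5* and *Nr4a3* are shown because these genes carried the calls. The sequences are from RefSeq's 250-base windows before the start site on GRCm38.p6, given 5′ to 3′ and cut where a GENCODE transcript begins. For *Dusp5* the capitals mark 2 adjoining CArG boxes, the site of serum response factor, at 82 to 63 bases before the RefSeq start (chr19:53528895-53529108, plus strand).
Dusp5: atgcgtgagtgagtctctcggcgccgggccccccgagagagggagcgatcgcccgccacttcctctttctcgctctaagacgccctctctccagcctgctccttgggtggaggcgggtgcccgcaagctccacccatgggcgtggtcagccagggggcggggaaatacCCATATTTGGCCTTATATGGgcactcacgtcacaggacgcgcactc
For *Nr4a3* they mark 3 copies of TGACG, the core of the cAMP response element, on either strand at 231 to 201 bases before the start (chr4:48045055-48045152, plus strand). This core was searched for after the sequences had been seen. A further copy, at 147 to 143 bases before the start, lies in the part of the window that was cut.
Nr4a3: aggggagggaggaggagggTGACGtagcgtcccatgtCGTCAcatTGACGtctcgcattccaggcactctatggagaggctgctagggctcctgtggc
A CArG box on either strand lay in the window of 3 of the 21 immediate-early genes with a window (*Dusp5*, *Zfp36* and *Egr2*), or 14.3%, against 1.62% of the 27025 genes in the table. TGACG lay in 11 of the 21, or 52.4%, against 19.8% of all genes. The full palindrome TGACGTCA, which holds TGACG, lay in 2 of the 21 (*Btg2* and *Dusp1*), or 9.52%, against 1.77%. The AP-1 site TGANTCA lay in 0 of the 21 against 7.82%, CCAAT in 7 (33.3%) against 37.5% and TATAAA in 2 (*Fos* and *Nr4a2*, 9.52%) against 14.3%. A match is a description of the letters and not of a bound site. No window was held for *Egr1*, *Egr3*, *Fosl1*, *Ier2*, *Nfkbiz*, *Hspa8* and *Hsp90aa1*.

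The AP-1 subunits pair through leucine zippers and bind TPA response elements. *Jun*, a main transactivating subunit, was at 1102, 801 and 888 CPM in Lyve-1- replicates 1 to 3 and 2569, 1315 and 1921 CPM in Lyve-1+ replicates 1 to 3. All 3 Lyve-1+ libraries were above the Lyve-1- libraries, with the 6-week pool the highest. The difference was not called (log2 fold change 1.06, SE 0.27, 95% interval 0.48 to 1.63, adjusted p = 0.123). With age as a covariate, a fit that called 0.974% of all genes, *Jun* was called at adjusted p = 0.0413, and DESeq2, which called 1.94% of all genes, gave 0.00663. *Fos*, its usual partner, was at 1253, 942 and 887 CPM in Lyve-1- replicates 1 to 3 and 2325, 1269 and 1322 CPM in Lyve-1+ replicates 1 to 3. The Lyve-1+ libraries were again above, by a narrow margin between Lyve-1+ replicate 2 and Lyve-1- replicate 1, and the difference was not called (log2 fold change 0.67, SE 0.27, 95% interval 0.09 to 1.26, adjusted p = 0.522). Without Lyve-1- replicate 3 and Lyve-1+ replicate 1 its log2 fold change was 0.22. *Fosl2*, or Fra-2, a FOS-family member that accumulates later and lacks the strong FOS transactivation domain, went the other way. It was at 1317, 839.9 and 796 CPM in Lyve-1- replicates 1 to 3 and 550.5, 619 and 521 CPM in Lyve-1+ replicates 1 to 3. The subsets did not overlap, and the call depended on the tool, with edgeR giving log2 fold change -0.80, SE 0.26, 95% interval -1.35 to -0.26, adjusted p = 0.285 and DESeq2 giving a log2 fold change of -0.84 and adjusted p = 0.0366. The summed level of the 9 fibroblast markers was higher in each Lyve-1+ library than in any Lyve-1- library. For 6 of the 9 the Lyve-1+ libraries all lay above, against 7.82% of all genes. None of the 9 was called by edgeR, against 0.629% of all genes, and DESeq2 called 4 as higher, against 1.94% called in either direction. In Lyve-1+ replicate 3 the fibroblast markers summed to 7431 CPM, beside 5849 CPM for the 9 macrophage markers. The part of the fibroblast markers in the results was not tested. Without Lyve-1+ replicate 3, the library with the highest sum, the log2 fold change was 1.04 for *Jun*, 0.78 for *Fos* and -0.78 for *Fosl2*, and the sums of the remaining Lyve-1+ libraries were still above those of Lyve-1- libraries.

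The remaining AP-1 genes overlapped between the subsets. *Fosb*, whose protein is a strong FOS-family activator, was at 2102, 1577 and 1778 CPM in the Lyve-1- libraries and 2299, 1289 and 2257 CPM in the Lyve-1+ libraries. *Junb*, which often opposes *Jun*, was at 1329.7, 986 and 931 CPM in the Lyve-1- libraries and 1488, 1113 and 974 CPM in the Lyve-1+ libraries. *Jund*, the most constitutive of the *Jun* genes, was at 443, 333 and 532 CPM in the Lyve-1- libraries and 669.8, 333 and 492 CPM in the Lyve-1+ libraries. These 3 differed by log2 fold changes of 0.10, 0.14 and 0.19, each with an adjusted p of 1.00. *Atf3*, a stress-induced member that mainly represses, was at 1612, 1007 and 644 CPM in the Lyve-1- libraries and 1994, 1134 and 923 CPM in the Lyve-1+ libraries. In both subsets the 6-week library was the highest and replicate 3 the lowest. *Fosl1*, or Fra-1, was near the limit of detection at 0, 8 and 29 raw counts in Lyve-1- and 64, 34 and 104 in Lyve-1+ replicates 1 to 3. It shares 52.6% of its 50-base windows with the overlapping gene *Ccdc85b*, and background at the olfactory receptor density would make up 18.5% of its counts in Lyve-1- replicate 3, so no direction is given.

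Among the EGR zinc-finger factors, the NR4A receptors and *Klf6*, *Nr4a3* was the only gene called. *Egr1*, a direct target of ERK and serum response factor, was at 987, 754 and 485 CPM in Lyve-1- replicates 1 to 3 and 1914, 961 and 931 CPM in Lyve-1+ replicates 1 to 3. Lyve-1- replicate 1 lay above 2 of the Lyve-1+ libraries, and the difference was not called (log2 fold change 0.77, SE 0.33, 95% interval 0.07 to 1.47, adjusted p = 0.55). Without Lyve-1- replicate 3 and Lyve-1+ replicate 1 it was 0.10. *Egr2*, which is linked to macrophage and T cell differentiation, was at 106, 255 and 70.3 CPM in the Lyve-1- libraries and 281, 238 and 95.5 CPM in the Lyve-1+ libraries. Its 6 values spread 3.99-fold with no separation of the subsets. *Egr3* was at 82.1, 69.0 and 28.7 CPM in the Lyve-1- libraries and 34.4, 47.7 and 15.4 CPM in the Lyve-1+ libraries. In this group of 7 genes, 5 overlapped without reaching an unadjusted p under 0.05, *Egr2* and *Egr3* among them.

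*Nr4a1*, or NUR77, was at 540.3, 806 and 293 CPM in the Lyve-1- libraries and 529, 604 and 385 CPM in the Lyve-1+ libraries. Its lowest and highest libraries were both Lyve-1-, and the log2 fold change was -0.11 (SE 0.33, adjusted p = 1). *Nr4a2*, or NURR1, was at 662, 479 and 276 CPM in the Lyve-1- libraries and 311, 404 and 205 CPM in the Lyve-1+ libraries, with a log2 fold change of -0.62 (SE 0.33, adjusted p = 0.768). Within the NR4A family the fitted differences were -0.11, -0.62 and -1.56 for *Nr4a1*, *Nr4a2* and *Nr4a3*, and only the last was called. The differences between these members were not tested. *Klf6*, a zinc-finger factor linked to inflammatory activation of macrophages, was at 1811, 1900.1 and 1014 CPM in the Lyve-1- libraries and 1931, 1807 and 1429 CPM in the Lyve-1+ libraries, and its subsets overlapped. Of the IER genes, *Ier2* was at 157, 133 and 117 CPM in the Lyve-1- libraries and 175, 173 and 91.0 CPM in the Lyve-1+ libraries. *Ier3*, a modulator of apoptosis, was at 294, 324 and 131 CPM in the Lyve-1- libraries and 537, 385 and 140.0 CPM in the Lyve-1+ libraries, and replicate 3 was the lowest library of each subset. *Ier5*, a coactivator of heat shock factor 1, was at 514, 579 and 388 CPM in the Lyve-1- libraries and 546, 551 and 323 CPM in the Lyve-1+ libraries. None of the 3 separated the subsets, and their log2 fold changes were 0.11, 0.50 and -0.06.

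Among the feedback inhibitors, *Dusp5* was the only phosphatase called, and the differences between the phosphatases were not tested. *Dusp1*, or MKP-1, which switches off p38 and JNK, was at 1358, 1385 and 1204 CPM in Lyve-1- replicates 1 to 3 and 2097, 1259.8 and 1139 CPM in Lyve-1+ replicates 1 to 3. Lyve-1+ replicate 1 stood above the other 5 libraries, which lay between 1139 and 1385 CPM. *Dusp2*, or PAC-1, a nuclear phosphatase of ERK and p38, was low at 31.9, 53.2 and 47.2 CPM in the Lyve-1- libraries and 11.1, 37.9 and 16.1 CPM in the Lyve-1+ libraries. Lyve-1+ replicate 2 lay inside the Lyve-1- range, and the log2 fold change was -1.02 (SE 0.55, adjusted p = 0.772). *Nfkbia* encodes IkB-alpha, which holds NF-kB in the cytoplasm and is itself induced by it. It was at 927, 984 and 887 CPM in Lyve-1- replicates 1 to 3 and 644, 694 and 508 CPM in Lyve-1+ replicates 1 to 3. Every Lyve-1+ library was lower than every Lyve-1- library, and the libraries of a subset lay close together, but the difference was not called (log2 fold change -0.60, SE 0.23, 95% interval -1.10 to -0.10, adjusted p = 0.466). *Nfkbiz*, an atypical nuclear IkB that co-activates secondary response genes, was at 1028, 1074 and 749 CPM in the Lyve-1- libraries and 1126, 1006 and 654 CPM in the Lyve-1+ libraries, with a log2 fold change of -0.03 (SE 0.26, adjusted p = 1).

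*Socs3*, which blocks signalling from gp130 receptors, was at 500.3, 581 and 493 CPM in Lyve-1- replicates 1 to 3 and 674, 593 and 800.4 CPM in Lyve-1+ replicates 1 to 3. Its subsets separated, but only narrowly, by 581 against 593 CPM between the 2 libraries numbered 2, and the log2 fold change was 0.39 (SE 0.24, adjusted p = 0.874). *Zfp36* was at 2408, 3055 and 1329 CPM in the Lyve-1- libraries and 2703, 2176 and 1709 CPM in the Lyve-1+ libraries. Lyve-1- libraries held both its highest and its lowest value. *Btg2*, an antiproliferative cofactor of mRNA deadenylation, was at 447, 656 and 447 CPM in the Lyve-1- libraries and 514, 479 and 489 CPM in the Lyve-1+ libraries. It varied least of the 32 genes, by 1.47-fold between the lowest and the highest library.

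Heat-shock chaperones did not separate the subsets, against 7.82% of all genes with the Lyve-1+ libraries all above and 6.5% all below. Of the 6, 0 were called by edgeR or DESeq2, against 0.629% and 1.94% of all genes. An unadjusted p under 0.05 was reached by 0 with either tool, against 7.69% by edgeR. With 6 genes, a count of 0 is near these shares. The median log2 fold change of the 6 was 0.15. *Hspa8* was at 4999, 3848 and 5132 CPM in the Lyve-1- libraries and 5865, 4987 and 5384 CPM in the Lyve-1+ libraries. *Hsp90aa1* was at 2748, 1467 and 2473 CPM in the Lyve-1- libraries and 2437, 1935 and 2968 CPM in the Lyve-1+ libraries. Both were lowest in Lyve-1- replicate 2. *Dnajb1*, the HSP40 cochaperone of HSP70, was at 116, 136 and 144 CPM in the Lyve-1- libraries and 186, 117 and 176 CPM in the Lyve-1+ libraries, with a log2 fold change of 0.27 (SE 0.29, adjusted p = 1). *Hspb1*, or HSP27, was low and variable at 16.7, 11.9 and 15.7 CPM in the Lyve-1- libraries and 5.41, 27.8 and 4.91 CPM in the Lyve-1+ libraries, and its highest and lowest libraries were both Lyve-1+.

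The inducible HSP70 genes *Hspa1a* and *Hspa1b* are neighbouring single-exon copies on chromosome 17, and their upstream windows are shown because they are nearly identical. Over 250 bases, 3 positions differ. The capitals mark the heat-shock element core GAANNTTC, at 104 to 97 bases before the RefSeq start, and CCAAT read from the other strand, at 67 to 63 bases before it. The windows are chr17:34972157-34972406 and chr17:34959239-34959488 on GRCm38.p6, minus strand, given 5′ to 3′.
Hspa1a: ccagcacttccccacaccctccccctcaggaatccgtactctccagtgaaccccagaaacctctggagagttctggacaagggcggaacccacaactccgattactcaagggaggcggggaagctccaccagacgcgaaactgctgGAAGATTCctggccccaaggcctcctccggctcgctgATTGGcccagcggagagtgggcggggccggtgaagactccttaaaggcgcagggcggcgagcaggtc
Hspa1b: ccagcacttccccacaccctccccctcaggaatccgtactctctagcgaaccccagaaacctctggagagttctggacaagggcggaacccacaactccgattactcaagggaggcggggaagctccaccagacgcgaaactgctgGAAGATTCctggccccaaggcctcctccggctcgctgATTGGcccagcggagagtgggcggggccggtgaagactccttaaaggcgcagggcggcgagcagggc
GAANNTTC lay on either strand in 3 of the 4 chaperone genes with a window (*Hspa1a*, *Hspa1b* and *Hspb1*), or 75.0%, against 7.73% of all genes and 9.52% of the immediate-early genes. CCAAT lay in 3 of the 4, the CArG box, TGACGTCA, TGANTCA and TATAAA in 0 of the 4, and TGACG in 2 of the 4.

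Despite like windows, the counts of the pair differed in level and spread. *Hspa1b* was at 1786, 249 and 1135 CPM in Lyve-1- replicates 1 to 3 and 1254, 717 and 1600.4 CPM in Lyve-1+ replicates 1 to 3. Lyve-1- replicate 2 stood far below the other 5 libraries, and the whole range was 7.18-fold, the widest of the genes without a 0. *Hspa1a* was at 188, 179 and 267 CPM in Lyve-1- replicates 1 to 3 and 207, 167 and 252 CPM in Lyve-1+ replicates 1 to 3, a range of 1.60-fold. The ratio of *Hspa1b* to *Hspa1a* in CPM ran from 1.39 in Lyve-1- replicate 2 to 9.49 in Lyve-1- replicate 1, and from 4.29 to 6.34 in Lyve-1+ libraries. Neither was called between the subsets (log2 fold change 0.17, SE 0.66, 95% interval -1.39 to 1.74, adjusted p = 1 for *Hspa1b*, log2 fold change -0.02, SE 0.28, 95% interval -0.62 to 0.59, adjusted p = 1 for *Hspa1a*). Of 50-base windows of their GENCODE transcripts, 66.3% of those of *Hspa1a* and 62.3% of those of *Hspa1b* occur in other genes, mostly in each other. A read of 50 bases from these stretches cannot by itself be assigned to 1 copy. The reads were paired, and whether a mate outside these stretches placed the pair was not examined. How the counting treated such reads is not given in the sources used here. Summed to 1 gene, the pair gave a log2 fold change of 0.14. Sharing of over 20% of windows also held for *Fosl1*, *Jund*, *Dusp5*, *Hspa8*, *Hsp90aa1* and *Hspb1*, and 19 of the 32 genes shared none. For *Dusp5* the shared 20.5% lies in 1 other annotated gene, *AC137853.2*, with windows matched on either strand. The strand setting of the counting is not given in the sources used here.

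Levels of the 32 genes also varied by library. Lyve-1+ replicate 1 was the highest library for 15 of the 32 and Lyve-1- replicate 2 for 7. The libraries numbered 3 were the lowest for 10 genes each. Over all genes tested, Lyve-1+ replicate 1 was the highest library for 13.6%, Lyve-1- replicate 3 the lowest for 11.1% and Lyve-1+ replicate 3 the lowest for 19.4%. Summed over the 26 immediate-early genes, the libraries held 21954, 20689 and 15088 CPM in Lyve-1- replicates 1 to 3 and 26286, 18849.5 and 17567 CPM in Lyve-1+ replicates 1 to 3. The sums of the subsets overlapped, and replicate 3 was the lowest library in each. The 6 chaperones summed to 9853, 5891 and 9167 CPM in Lyve-1- and 9955, 7951 and 10385 CPM in Lyve-1+ libraries, with replicate 2 the lowest in each.

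**Figure D4:**
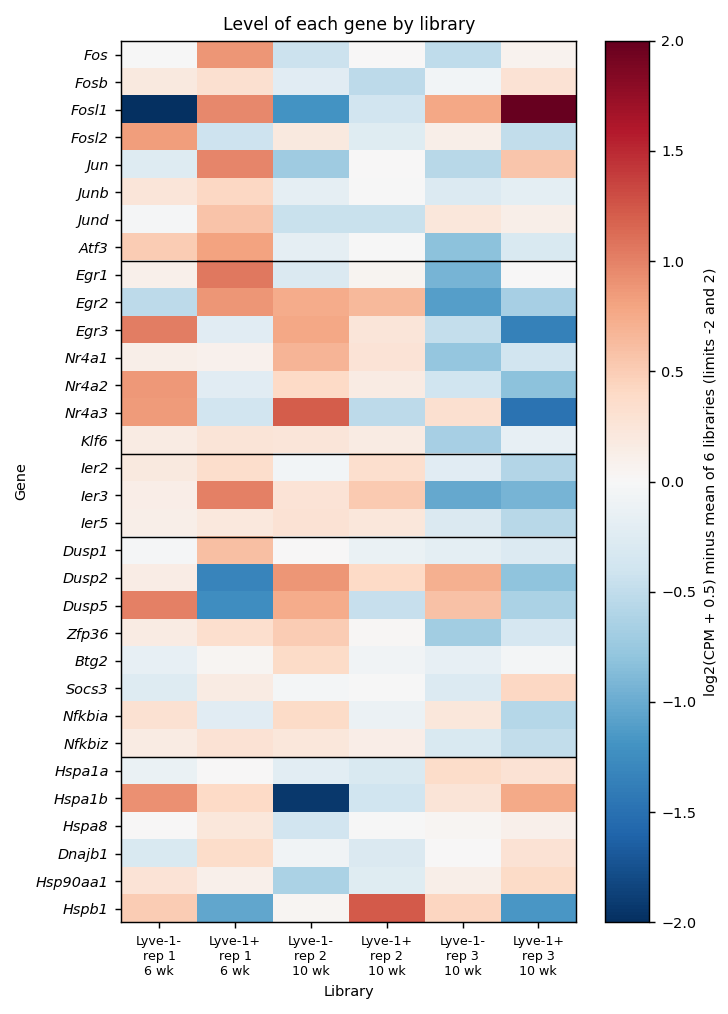
Level of each gene in each library as log2(CPM + 0.5) minus its mean over the 6 libraries, with libraries ordered by replicate number and horizontal lines between gene groups. Lyve-1+ replicate 1 is red for most AP-1 genes and *Egr1*, the replicate 3 libraries are blue for most other immediate-early genes, and *Hspa1b* is dark blue in Lyve-1- replicate 2.

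Age was compared as 10 weeks (4 libraries) against 6 weeks (2 libraries), with the subset as a second term. None of the 32 genes was called by edgeR, against 0.0225% of all genes, and 5 reached an unadjusted p under 0.05, against 3.33%. All 5 had fitted levels below those of 6 weeks. *Atf3* averaged 1803 CPM at 6 weeks and 927 CPM at 10 weeks, with a log2 fold change of -0.96 (SE 0.25, adjusted p = 0.558). It was called by DESeq2 (log2 fold change -0.94, adjusted p = 0.0388), and by edgeR without Lyve-1- replicate 2 (-1.12, adjusted p = 0.0356). *Egr1* averaged 1450.5 and 783 CPM, with a log2 fold change of -0.85 (SE 0.25, adjusted p = 0.924). *Fos*, *Jun* and *Junb* had log2 fold changes of -0.65, -0.53 and -0.49. In all, 25 of the 32 genes had a fitted level below that of 6 weeks, with a median log2 fold change of -0.30 beside 0.07 over all genes. With a single 6-week pool per subset, age and pool cannot be told apart. The difference between the subsets changed with age for 0 of the 32 genes by edgeR. This held at an adjusted p under 0.05 (0.00749% of all genes) and at an unadjusted p under 0.05 (4.59% of all genes). With DESeq2 it was also 0 at either limit. The number of all genes that DESeq2 called is given below with the alternatives, and its share at the unadjusted limit is not given here.

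Further genes of these pathways were taken from fixed lists. Of 11 NF-kB subunits and inhibitors tested, 9 had fitted levels below and 2 above those of Lyve-1- libraries, with a median log2 fold change of -0.63 beside -0.01 over all genes. By edgeR none was called, against 0.629% of all genes, and 6 of the 11 reached an unadjusted p under 0.05, against 7.69%. DESeq2 called 2 as lower, *Nfkbie* and *Rel*, against 1.94% of all genes called in either direction. For 6 of the 11 the Lyve-1+ libraries all lay below, against 6.5% of all genes. The 6 dendritic cell markers, at summed levels of 402 to 869 CPM in Lyve-1- and 123 to 364 CPM in Lyve-1+ libraries, had fitted differences below 0 in 6 of 6, with a median of -1.41, and their part in this result was not tested. *Rel*, a transactivating NF-kB subunit, was at 499, 490.1 and 490.0 CPM in Lyve-1- replicates 1 to 3 and 174, 296 and 283 CPM in Lyve-1+ replicates 1 to 3, with a log2 fold change of -0.97 (SE 0.27, adjusted p = 0.171). *Relb*, a subunit of the alternative pathway, was at 98.2, 163 and 138 CPM in the Lyve-1- libraries and 45.4, 75.6 and 57.3 CPM in the Lyve-1+ libraries, with a log2 fold change of -1.16 (SE 0.34, adjusted p = 0.203). *Nfkbie*, or IkB-epsilon, was at 811, 605 and 679.9 CPM in the Lyve-1- libraries and 208, 392 and 449 CPM in the Lyve-1+ libraries, with a log2 fold change of -0.999 (SE 0.29, adjusted p = 0.218). The lowest log2 fold change was that of *Chuk*, or IKK-alpha, at -1.29 (SE 0.48, adjusted p = 0.43), and the highest that of *Ikbkg*, or NEMO, at 0.24 (SE 0.81, adjusted p = 1).

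Of 33 other primary response genes, 17 had fitted differences above 0 and 16 below, with a median of 0.02. By edgeR 1 was called, against 0.629% of all genes, and 8 reached an unadjusted p under 0.05, against 7.69%. DESeq2 called 4, against 1.94% of all genes, with *Rhob*, *Dusp6* and *Cebpd* higher and *Tnfaip3* lower. With DESeq2 9 reached an unadjusted p under 0.05, a limit at which no share over all genes was taken for that tool. The gene called by edgeR was *Rhob*, an endosomal small GTPase, at 154, 128 and 122 CPM in Lyve-1- replicates 1 to 3 and 519, 316 and 335 CPM in Lyve-1+ replicates 1 to 3 (log2 fold change 1.53, SE 0.28, 95% interval 0.93 to 2.14, adjusted p = 0.0263). The subsets did not overlap. The highest log2 fold change was that of *Cyr61*, a matricellular protein also made by fibroblasts, at 1.97 (SE 0.62, adjusted p = 0.271), and the lowest that of *Arc* at -0.88 (SE 0.59, adjusted p = 0.935). Of 14 genes of the unfolded protein and oxidative stress responses, 9 had fitted differences above 0 and 5 below, with a median of 0.21. Among these 14, edgeR called 1, against 0.629% of all genes, and 3 reached an unadjusted p under 0.05, against 7.69%. DESeq2 also called 1, the same gene, against 1.94%. *Hmox1*, the haem-degrading oxygenase of the oxidative stress response, was called as higher, at 507, 301 and 308 CPM in Lyve-1- replicates 1 to 3 and 1389, 776 and 867 CPM in Lyve-1+ replicates 1 to 3 (log2 fold change 1.44, SE 0.30, 95% interval 0.80 to 2.08, adjusted p = 0.0428). The lowest value of that list was that of *Herpud1*, a gene of ER-associated degradation, at -0.51 (SE 0.31, adjusted p = 0.878). Of 28 other heat-shock factors and chaperones, 17 had fitted differences above 0 and 11 below, with a median of 0.08. None was called by edgeR or DESeq2, against 0.629% and 1.94% of all genes. An unadjusted p under 0.05 was reached by 3 with edgeR, against 7.69%, and by 2 with DESeq2, for which no such share was taken. The log2 fold changes ran from *Hspa2* at -1.44 (SE 0.60, adjusted p = 0.544) to *Cryab* at 1.91 (SE 2.75, adjusted p = 1). Of 15 genes of the MAP kinase and serum response factor pathway, 0 were called by edgeR or DESeq2, against 0.629% and 1.94% of all genes. An unadjusted p under 0.05 was reached by 0 with either tool, against 7.69% by edgeR. Log2 fold changes in this list ran from *Map2k6* at -1.59 (SE 1.63, adjusted p = 1) to *Elk3* at 0.70 (SE 0.37, adjusted p = 0.758).

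**Figure D5:**
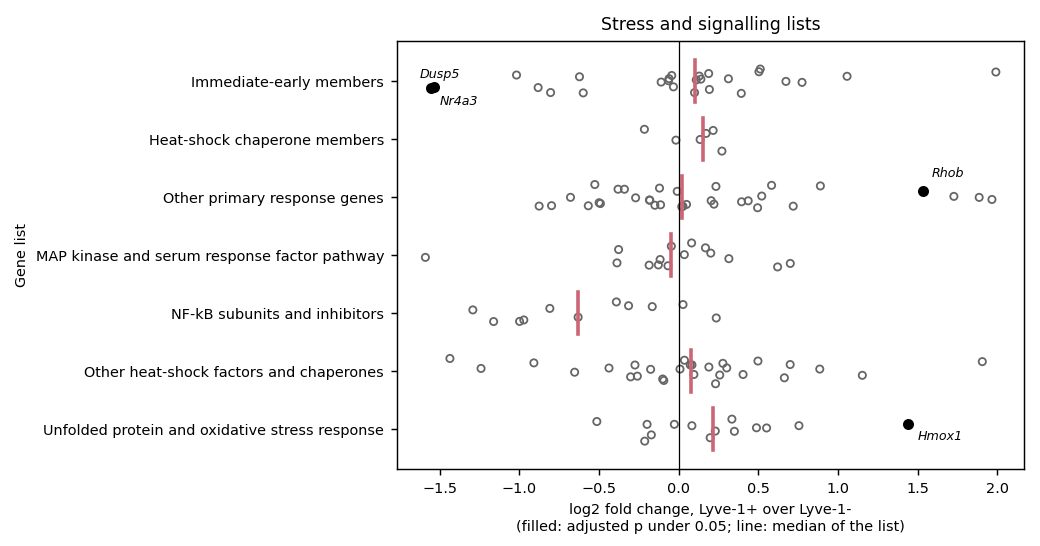
Log2 fold change of Lyve-1+ over Lyve-1- for each gene of 7 lists, with filled points for an adjusted p under 0.05 and a red line at the median of the list. *Nr4a3* and *Dusp5* lie at the left, *Rhob* and *Hmox1* at the right, and the points of the NF-kB list lie mostly below 0 with none called.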

How the data were processed

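RNA was extracted from sorted cells (RNeasy), and libraries were made with the Clontech SMARTer Stranded Total RNA-seq Pico kit. The authors mapped paired 50-bp reads to mm10 (GRCm38) with HISAT2 (version 2.0.2) and counted reads per gene with featureCounts (version 1.5.0), per the submitters' processing notes and the study's methods. Their annotation and strand setting are not given in the sources used here. The deposited values were raw counts for 24061 gene symbols, without normalization. The methods name the removal of short genes and of an outlying 6-week library, which was not analysed here.

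In this work, edgeR (version 4.0.16, R 4.3.3) filtered genes with filterByExpr, normalized by TMM and compared the subsets with the robust quasi-likelihood F test, with Benjamini-Hochberg adjustment over 13348 genes. CPM are TMM-scaled. SEs came from the coefficient and its F. Age and its interaction with the subset were fitted in further models. Library totals, which set the counting precision, ran from 6478007 to 21406839. Alternatives were DESeq2 (version 1.42.0), other scalings, filters and thresholds, age or replicate number as terms, the 10-week libraries alone, removal of ribosomal, small RNA and mitochondrial genes, *Hspa1a* and *Hspa1b* summed, correction for counts on olfactory receptor genes, and libraries left out. Exonic lengths came from GENCODE M21, in which 22749 symbols matched directly and 934 through a synonym. Upstream sequences came from RefSeq (GRCm38.p6), with 25 of the 32 genes matched.

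The 32 genes, the further lists and the naming rule (every one of the 32, and of the other lists those called and the largest rise and fall) were chosen with earlier results of these data known. *Rel*, *Relb*, *Nfkbie*, *Dusp6*, *Cebpd*, *Tnfaip3*, *Xcr1*, *Ccr7* and the TGACG motif were added once values or sequences had been seen. The fits were tested on simulated data, in which both tools missed changed genes and DESeq2 made more false calls than edgeR.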

Additional observations from a re-analysis of the deposited data

How the results depend on the processing

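Across the alternatives, 515 of 574 log2 fold changes of single genes kept their direction and their side of the threshold. DESeq2 called 4 of the 32 genes between the subsets (*Fosl2*, *Nr4a3*, *Dusp5* and *Jun*), against 2 by edgeR. The count was 0 in the 10-week libraries alone, 0 without Lyve-1- replicate 3 and Lyve-1+ replicate 1 together and 0 at an adjusted p under 0.01 and an absolute log2 fold change of 1 to 10. These fold limits are the study's, which gives them without a log scale, read here as log2. Leaving out each library in turn gave 0 to 3. *Jun* was also called without the filter (adjusted p = 0.0104) and without Lyve-1+ replicate 2 (adjusted p = 0.0254). The median over the 32 genes became -0.19 without Lyve-1- replicate 3 and Lyve-1+ replicate 1 together, and ranged from -0.030 to 0.20 with each library left out. For age, DESeq2 called 1 gene, and leaving out each library gave 0 to 1. Over all genes, the 84 calls between the subsets became 259 with DESeq2, 289 without the filter, 130 with age as a covariate, 39 in the 10-week libraries alone and 3 without those 2 libraries. They became 15 at those limits, 132 at an adjusted p under 0.1 and 19 to 153 with each library left out. For age, the 3 calls became 35 with DESeq2, 19 without the filter, 8 with at least 10 counts in every library, 5 with total library sizes and 2 to 35 with each library left out. For the change of the subset difference with age, 1 call became 58 with DESeq2, 19 without the filter and 0 with total library sizes.

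Directions turned only for genes that were not called. In the 10-week libraries alone the log2 fold change was -0.068 for *Jund*, -0.12 for *Dusp1* and 0.25 for *Hspb1*. Without Lyve-1- replicate 3 and Lyve-1+ replicate 1 together it was -0.072 for *Fosb*, -0.17 for *Junb*, -0.37 for *Atf3*, -0.13 for *Egr2*, -0.22 for *Klf6*, -0.16 for *Ier2*, -0.26 for *Ier3*, -0.21 for *Dusp1*, 0.17 for *Hspa1a* and 0.17 for *Hspb1*. Summing *Hspa1a* and *Hspa1b* gave 0.14 in place of the value of *Hspa1a*. With each library left out the values ranged from -0.045 to 0.31 for *Fosb*, -0.033 to 0.30 for *Junb*, -0.067 to 0.40 for *Jund*, -0.061 to 0.69 for *Atf3*, -0.41 to 0.28 for *Nr4a1*, -0.11 to 0.29 for *Klf6*, -0.051 to 0.33 for *Ier2* and -0.21 to 0.12 for *Ier5*. They ranged from -0.12 to 0.32 for *Dusp1*, -0.32 to 0.24 for *Zfp36*, -0.17 to 0.15 for *Btg2*, -0.18 to 0.14 for *Nfkbiz*, -0.20 to 0.19 for *Hspa1a*, -0.29 to 0.79 for *Hspa1b*, -0.089 to 0.31 for *Hsp90aa1* and -1.53 to 0.19 for *Hspb1*. The cause of these changes was not tested, and each removal also left fewer samples.

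Replicate numbers are shared by the subsets, but same-numbered libraries did not deviate together over all genes (correlations of -0.014, 0.0066 and -0.097), and not every library correlated best with its own number. Over the 32 genes alone the same-number correlations were 0.243, 0.415 and 0.835, and every library correlated best with its own number. The labels give same-numbered libraries the same age and name no shared digest or sort, so beyond age the pairing is a hint from the data. With the replicate block, edgeR called *Jun* (log2 fold change 1.02, adjusted p = 0.00403, higher in Lyve-1+ in 3 of 3 same-numbered pairs) beside *Nr4a3* and *Dusp5*, 270 of all genes, and the value of 0.015 for *Zfp36* had the opposite sign. No block could be fitted for age, which the numbers contain. *Fosl1*, at 0 to 104 counts, is limited by depth.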
